A study of Mus musculus with 8 samples.

Results

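TRBD1 and TRBD2 are the diversity (D) gene segments of the mouse T-cell receptor beta locus, and they were followed here in beta chains sequenced from single cells of injured brains. Members were the beta chains to which the deposited annotation gives a D segment, and they were set against beta chains with none. A rearrangement is a beta CDR3 of 1 clonotype in 1 library, counted once. Of 1691 rearrangements in 4 libraries, 278 carried TRBD1, 141 carried TRBD2 and 1272 had no called D. Within libraries 26 pairs of clonotypes shared a beta CDR3 and J segment, and joining them left 1667. The same calls stood on 368, 374 and 2225 of the 2967 deposited beta contigs, a contig being the assembled chain of 1 cell.

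Brains of male C57BL/6 mice with traumatic brain injury (TBI) from controlled cortical impact were collected 2 months after injury, with 1 library per group and 2 mice pooled in each. Young mice, 13 to 15 weeks old at injury, gave YTBI_Isotype and YTBI_aCD49d, and aged mice, 80 to 82 weeks old, gave ATBI_Isotype and ATBI_aCD49d. Mice received 300 µg of an antibody to CD49d (aCD49d), an integrin subunit that T cells use to enter tissue, or an isotype control, repeated every 2 weeks. The mice of all 4 groups were injured, and young and aged mice came from different colonies, so that age and colony cannot be told apart. CD45+ cells, which include all leukocytes, were sorted before sequencing. Transcriptomes of the same groups are not analysed here, and the T cell identity of the barcodes was therefore not checked against marker genes. With 1 library per group no test between groups was made. All intervals are 95% intervals, exact for a share and by Newcombe's method for a difference, and they cover counting error only.

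A beta chain is assembled in the thymus by cutting and joining DNA. A D segment is first joined to a J segment, and a V segment is then joined to the DJ product. Enzymes trim the ends and add random bases at both joins, so only a remnant of the short D segment survives in the complementarity-determining region 3 (CDR3), the loop that contacts the peptide antigen. TRBD1 lies upstream of both J clusters and can join either. TRBD2 lies between them, so the usual deletion of intervening DNA can join it only to cluster 2.

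On GRCm38, Trbd1 lies at chr6:41533201-41533212 and Trbd2 at chr6:41542163-41542176, both on the plus strand and annotated as D genes. The first J segment of cluster 1, Trbj1-1, starts 651 bases after Trbd1, and Trbd2 starts 6556 bases after Trbj1-6. The first J segment of cluster 2, Trbj2-1, starts 577 bases after Trbd2. The germline sequences are shown because the calls rest on them, with the first base at which they differ in capitals.
TRBD1: gggacAgggggc
TRBD2: gggacTgggggggc
TRBD1 has 12 bases and TRBD2 14. They share their first 5 and last 6 bases, differ at position 6 counted from the 5′ end (A6T, TRBD1 base first), and TRBD2 has a run of 7 guanines where TRBD1 has 5. No run of more than 6 bases is common to both.

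The TRBD1 rearrangement with most cells in each library is shown next, from the first base of the cysteine codon that opens the deposited CDR3 to the last base of the codon that closes it. Capitals mark the longest stretch between the germline V and J bases that matches TRBD1 exactly.
YTBI_Isotype, 3 cells, TRBV12-1 and TRBJ1-2: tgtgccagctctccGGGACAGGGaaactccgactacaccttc
YTBI_aCD49d, 5 cells, TRBV13-1 and TRBJ2-1: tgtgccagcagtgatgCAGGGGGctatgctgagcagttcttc
ATBI_Isotype, 15 cells, TRBV14 and TRBJ1-3: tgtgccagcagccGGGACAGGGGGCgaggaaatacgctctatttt
ATBI_aCD49d, 8 cells, TRBV19 and TRBJ1-1: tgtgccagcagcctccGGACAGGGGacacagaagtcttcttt
The remnants were 9, 7, 12 and 9 bases long in this order. The ATBI_Isotype rearrangement kept the whole segment.

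For TRBD2 the corresponding rearrangements all used cluster 2, and capitals mark the TRBD2 remnant.
YTBI_Isotype, 2 cells, TRBV12-2+TRBV13-2 and TRBJ2-4: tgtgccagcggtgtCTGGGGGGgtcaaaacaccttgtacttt
YTBI_aCD49d, 6 cells, TRBV15 and TRBJ2-7: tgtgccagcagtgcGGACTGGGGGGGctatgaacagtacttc
ATBI_Isotype, 4 cells, TRBV19 and TRBJ2-7: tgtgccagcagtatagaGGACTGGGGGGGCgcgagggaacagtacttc
ATBI_aCD49d, 101 cells, TRBV12-2+TRBV13-2 and TRBJ2-4: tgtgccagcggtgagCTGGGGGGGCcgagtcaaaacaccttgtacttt
The remnants were 8, 12, 13 and 10 bases long. A name joined by a plus sign is a deposited call that does not separate the V genes.

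Among rearrangements with no called D, the largest of each library are shown with the longest match to either D segment in capitals.
YTBI_Isotype, 7 cells, TRBV13-3 and TRBJ2-7: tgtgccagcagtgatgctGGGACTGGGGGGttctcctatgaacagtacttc
YTBI_aCD49d, 30 cells, TRBV31 and TRBJ2-4: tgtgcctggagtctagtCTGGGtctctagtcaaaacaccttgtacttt
ATBI_Isotype, 106 cells, TRBV19 and TRBJ1-4: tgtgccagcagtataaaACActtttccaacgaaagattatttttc
ATBI_aCD49d, 77 cells, TRBV10 and TRBJ2-7: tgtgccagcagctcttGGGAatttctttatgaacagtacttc
The matches were 12, 5, 3 and 4 bases long. The YTBI_Isotype rearrangement held the first 12 of the 14 bases of TRBD2 and still had no D in the deposited annotation, while those of the other 3 libraries held short stretches.

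Counted once per rearrangement, a D was called in close to the same share of beta chains in every library. A D was called in 60 of 230 rearrangements of YTBI_Isotype (26.1%, interval 20.5% to 32.3%). YTBI_aCD49d had 115 of 456 (25.2%, interval 21.3% to 29.5%). ATBI_Isotype had 114 of 461 (24.7%, interval 20.9% to 28.9%), and ATBI_aCD49d had 130 of 544 (23.9%, interval 20.4% to 27.7%). The 4 intervals overlapped throughout. The aged library differed from the young one by -1.36 percentage points under isotype (interval -8.65 to 5.60) and by -1.32 points under aCD49d (interval -6.84 to 4.15). The aCD49d library differed from the isotype library by -0.868 points in young brains (interval -8.19 to 6.12) and by -0.832 points in aged brains (interval -6.32 to 4.60). All 4 of these intervals held 0. They cover the counting of chains in these libraries and not the spread between mice, so they do not test age or antibody. When only cells that also had an alpha chain were kept, the aged minus young differences were 1.52 points under isotype and 1.35 under aCD49d, the opposite sign.

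By the deposited calls, TRBD1 was more frequent than TRBD2 in every library. By the longer germline stretch, where it had 9 or more bases, the order was the opposite in every library. The counts were 26 TRBD1 against 38 TRBD2 chains in YTBI_Isotype and 56 against 76 in YTBI_aCD49d. They were 53 against 72 in ATBI_Isotype and 60 against 84 in ATBI_aCD49d. With stretches of any length the order over the libraries together was not turned, at 822 TRBD1 against 532 TRBD2 chains. The limit of 9 bases asks for 9 of the 12 bases of TRBD1 but 9 of the 14 of TRBD2, so it favours TRBD2. In the deposited calls TRBD1 made up 37 of 60 calls in YTBI_Isotype (61.7%, interval 48.2% to 73.9%) and 81 of 115 in YTBI_aCD49d (70.4%, interval 61.2% to 78.6%). In ATBI_Isotype it made up 72 of 114 (63.2%, interval 53.6% to 72.0%), and in ATBI_aCD49d 88 of 130 (67.7%, interval 58.9% to 75.6%). Differences between libraries ran from -2.74 to 8.77 points, and all 4 of their intervals held 0.

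Counted once per contig, so that a clone weighs by its cells, the aged libraries moved apart. The share of contigs with a called D was 25.2% in YTBI_Isotype (66 of 262) and 24.2% in YTBI_aCD49d (137 of 565). It was 15.6% in ATBI_Isotype (159 of 1016, interval 13.5% to 18.0%) and 33.8% in ATBI_aCD49d (380 of 1124, interval 31.0% to 36.7%). TRBD2 stood on 51 contigs of ATBI_Isotype (5.02%) and on 258 of ATBI_aCD49d (23.0%), while TRBD1 stood on 10.6% and 10.9% of theirs. The aged libraries thus differed by 18.2 points in called contigs (interval 14.5 to 21.7), of which TRBD2 gave 17.9 points. Contigs of 1 clone are not independent, and these intervals do not allow for that.

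**Figure D1:**
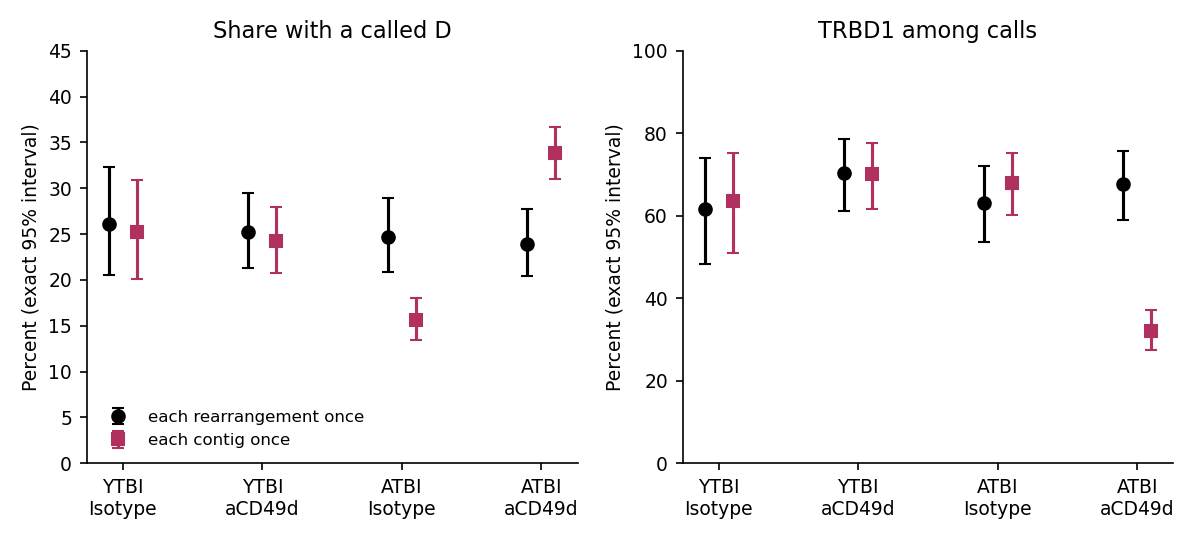
The left panel plots the percentage of beta chains with a called D and the right panel the percentage of TRBD1 among calls, with each rearrangement (black circles) or each contig (red squares) counted once in the 4 libraries; bars are exact 95% intervals. By rearrangement the 4 libraries sit between 23.9% and 26.1% called, whereas by contig ATBI_Isotype falls to 15.6% and ATBI_aCD49d reaches 33.8%.

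The largest clones differed in their calls between the aged libraries. In ATBI_aCD49d 5 rearrangements with TRBD2 held 10 or more cells, and their 214 cells carried only 2 distinct CDR3 nucleotide sequences. One, joined to TRBJ2-4, was in 113 cells of 2 clonotypes, and the other, which joined TRBV3 to TRBJ2-7, was in 101 cells of 3 clonotypes. No TRBD2 rearrangement of the other 3 libraries reached 10 cells. ATBI_aCD49d also had 6 rearrangements of 10 or more cells with no called D, 219 cells in all. In ATBI_Isotype 8 rearrangements with no called D held 10 or more cells, 414 cells in all, and 1 with TRBD1 held 15 cells. Without all rearrangements of 10 or more cells, a limit chosen after the clone sizes were seen, a D was called on 25.2%, 26.1%, 24.5% and 24.0% of contigs in YTBI_Isotype, YTBI_aCD49d, ATBI_Isotype and ATBI_aCD49d. TRBD1 then made up 64.6% of calls in ATBI_Isotype and 73.5% in ATBI_aCD49d.

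Of the 12 rearrangements that were the 3 largest of their library, 10 had no called D, against 75.2% of all rearrangements, and nothing is read from so few. In YTBI_Isotype they held 7, 4 and 4 cells and in YTBI_aCD49d 30, 10 and 7 cells, and none of the 6 had a call. In ATBI_Isotype they held 106, 99 and 73 cells, again with no call. The 99-cell and 73-cell rearrangements joined TRBV14 to TRBJ1-2 with the same alpha chain CDR3, and their beta CDR3 differed at 1 base (C5T, from the smaller to the larger clone, counted from the first CDR3 base). In ATBI_aCD49d they held 101 cells with TRBD2, 77 cells with no call and 69 cells with TRBD2.

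With each rearrangement counted once, the share of clonal rearrangements with a called D was close to that without. A rearrangement was called clonal when at least 2 cells of its library carried it. Pooled over the libraries, 56 of 419 rearrangements with a called D were clonal (13.4%, interval 10.3% to 17.0%), as were 164 of 1272 without (12.9%, interval 11.1% to 14.9%). The difference was 0.472 points (interval -3.21 to 4.53), and its sign changed with the clonal limit and with the clonotypes joined. Within libraries it was -1.57 points in YTBI_Isotype and 1.65 in YTBI_aCD49d, against -1.19 in ATBI_Isotype and 2.14 in ATBI_aCD49d, positive in 2 and negative in 2 (exact two-sided sign-flip permutation test over 4 libraries, p = 0.75).

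TRBD1 and TRBD2 were likewise close to each other. TRBD1 rearrangements were clonal in 38 of 278 cases (13.7%) and TRBD2 rearrangements in 18 of 141 (12.8%). TRBD2 was clonal in 11.9% of 42 rearrangements in ATBI_Isotype (interval 3.98% to 25.6%) and in 21.4% of 42 in ATBI_aCD49d (interval 10.3% to 36.8%), and these intervals overlapped. With clonotypes of the same CDR3 and J segment joined, an alternative chosen after seeing the data, they were 14.6% of 41 in ATBI_Isotype and 13.9% of 36 in ATBI_aCD49d, so the order turned. The median rearrangement had 1 cell in every class and library. The largest TRBD1 rearrangement had 15 cells, against 101 for TRBD2 and 106 for no called D.

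**Figure D2:**
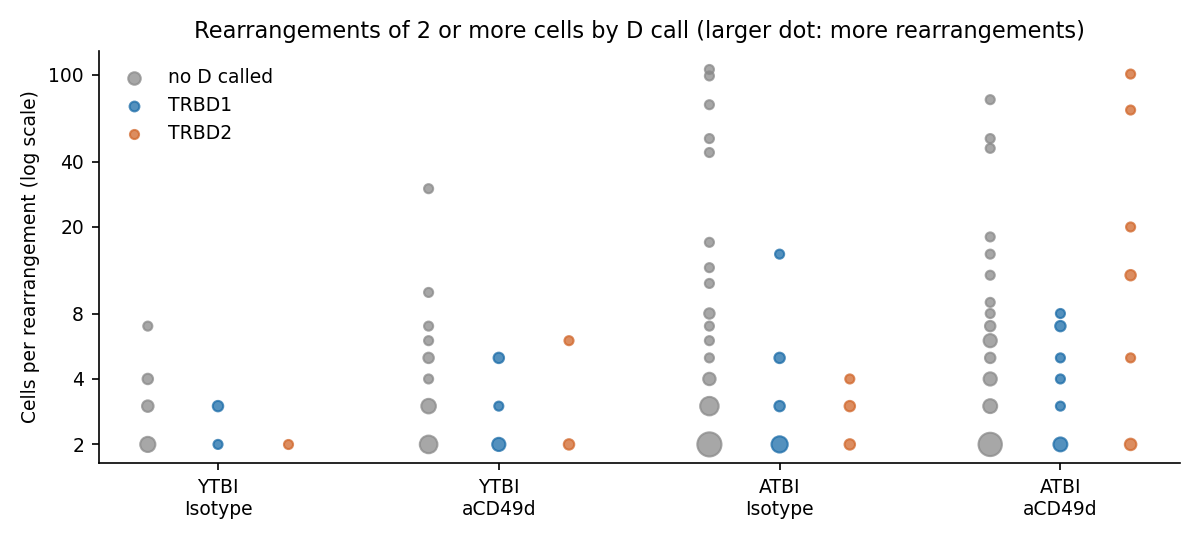
Each dot stands for the rearrangements of 1 size, in cells per rearrangement on a log scale, by library and D call, for rearrangements of 2 or more cells; a larger dot means more rearrangements of that size. TRBD1 stays at or below 15 cells in all 4 libraries, and TRBD2 exceeds 6 cells only in ATBI_aCD49d, where it reaches 101.

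TRBD2 was called almost only on chains joined to J cluster 2, and TRBD1 on chains of both clusters. Of the TRBD2 rearrangements, 2 of 141 used cluster 1 (1.42%, interval 0.172% to 5.03%). By library these were 1 of 23 in YTBI_Isotype and 0 of 34 in YTBI_aCD49d, against 0 of 42 in ATBI_Isotype and 1 of 42 in ATBI_aCD49d. The counts of 0 allow a share of up to 8.82% and 7.14% by the limit of 3 counts of the total, and of up to 10.3% and 8.41% by the exact interval. Rearrangements without a called D used cluster 1 in 487 of 1272 cases (38.3%), and TRBD2 minus none was -36.9 points (interval -39.9 to -32.4). Both exceptions were seen in 1 cell each, and they are shown with the TRBD2 stretch in capitals.
YTBI_Isotype, TRBV13-1 and TRBJ1-1: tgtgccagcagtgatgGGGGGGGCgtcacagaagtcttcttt
ATBI_aCD49d, TRBV13-2 and TRBJ1-4: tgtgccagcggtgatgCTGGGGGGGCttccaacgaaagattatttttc
The first match was 8 bases long, guanines with a final cytosine, and lacked position 6, where the D segments first differ. The second was 10 bases long and included that position. They rested on 15 and 2 UMIs.

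TRBD1 used cluster 1 in 128 of 278 rearrangements (46.0%, interval 40.1% to 52.1%). By library the share was 40.5% of 37 in YTBI_Isotype and 45.7% of 81 in YTBI_aCD49d, against 48.6% of 72 in ATBI_Isotype and 46.6% of 88 in ATBI_aCD49d. Rearrangements with no called D used cluster 1 in 31.2%, 32.3%, 45.5% and 40.1% in the same order. TRBD1 was therefore the higher in 4 of 4 libraries, and the pooled difference was 7.76 points (interval 1.19 to 14.4). Without YTBI_aCD49d it was 5.70 points and its interval held 0 (-2.11 to 13.6). Chains with no called D included 125 of cluster 2 and 0 of cluster 1 with a longer TRBD2 stretch of 9 or more bases. Such chains lower the cluster 1 share of the uncalled class, so this direction was favoured beforehand and is not read as a result. The constant gene followed the J cluster without exception, since all 614 cluster 1 rearrangements with a constant gene had TRBC1 and all 1069 of cluster 2 had TRBC2. TRBC1 chains accordingly carried TRBD1 in 20.8% and TRBD2 in 0.326% of cases, and TRBC2 chains in 14% and 12.7%.

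A D was called on 130 of 617 chains of cluster 1 (21.1%, interval 17.9% to 24.5%) and on 289 of 1074 of cluster 2 (26.9%, interval 24.3% to 29.7%). The excess in cluster 2 was 5.84 points (interval 1.51 to 10.0). It was 4.14 points in YTBI_Isotype and 0.0727 in YTBI_aCD49d, against 11.3 in ATBI_Isotype and 6.0 in ATBI_aCD49d. Without ATBI_Isotype it was 3.65 points and its interval held 0 (-1.57 to 8.67). TRBD1 alone was called less often in cluster 2 than in cluster 1 (difference -6.78 points, interval -10.7 to -2.94). Deletion leaves only TRBD1 for cluster 1, while cluster 2 chains can carry either segment. The locus order thus favours this direction, and it is not read as a result. With both D segments together, the share on cluster 1 was lower among called than uncalled rearrangements in 4 of 4 libraries, by a mean of -6.80 points ± 6.21 (SD, n = 4). The called class includes TRBD2, which is nearly absent from cluster 1, so no test of this direction is given. TRBD1 alone had the opposite one, which the locus order also favours. In cluster 2, TRBD1 made up 150 of 289 calls (51.9%, interval 46.0% to 57.8%). The split there was 50% in YTBI_Isotype and 56.4% in YTBI_aCD49d, against 46.8% in ATBI_Isotype and 53.4% in ATBI_aCD49d, with overlapping intervals.

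Among single J segments, TRBD1 was called on 15% (TRBJ1-6, 9 of 60) to 25.4% (TRBJ1-4, 36 of 142) of the cluster 1 chains. The values for TRBJ1-1, TRBJ1-2, TRBJ1-3 and TRBJ1-5 lay between, at 18.3%, 22.6%, 21.6% and 17.4%. All 6 intervals overlapped. In cluster 2, TRBD1 was called on 13.2% of TRBJ2-1, 20.5% of TRBJ2-2, 14.3% of TRBJ2-3, 12.2% of TRBJ2-5 and 17.4% of TRBJ2-7 chains. TRBJ2-4 was the lowest, with TRBD1 on 9 of 157 (5.73%, interval 2.65% to 10.6%). TRBD2 was called on 10.2% (TRBJ2-2) to 15.3% (TRBJ2-7) of chains, with TRBJ2-1, TRBJ2-3, TRBJ2-4 and TRBJ2-5 at 11%, 11.4%, 14.6% and 11.7%. By the deposited calls TRBJ2-4 was thus the only J segment of cluster 2 with fewer TRBD1 than TRBD2, 9 against 23. The largest total share of calls was on TRBJ2-7, the most used J segment, with 32.7% of 327 chains (interval 27.7% to 38.1%).

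**Figure D3:**
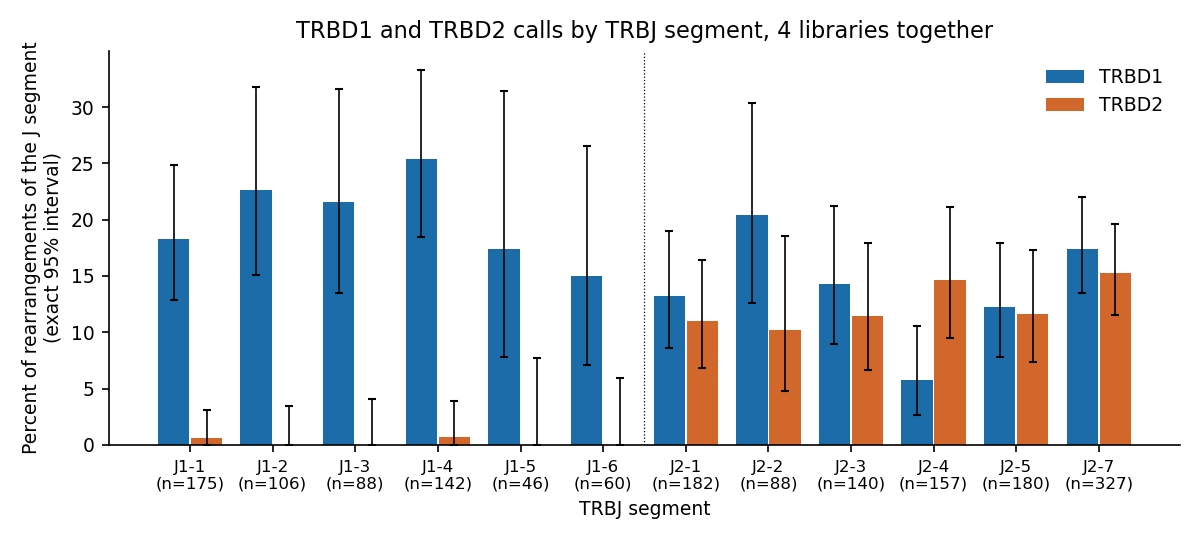
Bars give the percentage of rearrangements of each TRBJ segment with TRBD1 (blue) or TRBD2 (orange) called, with exact 95% intervals, over the 4 libraries together; the dotted line parts cluster 1 from cluster 2. TRBD2 is at 0 to 0.704% on cluster 1 and at 10.2% to 15.3% on cluster 2, and TRBJ2-4 has the lowest bar for TRBD1, 5.73%.

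Pooled over the libraries, the share of chains with a called D varied little beyond counting error across V segments. Of 22 deposited V names, 20 had at least 20 rearrangements, and the interval of each of the 20 held the overall share of 24.8%. The highest shares were 37.2% for TRBV13-2 (16 of 43, interval 23.0% to 53.3%), 35.0% for TRBV17 (14 of 40) and 30.5% for TRBV13-1 (40 of 131). The lowest were 16.3% for TRBV26 (8 of 49, interval 7.32% to 29.7%), 18.9% for TRBV1 (20 of 106) and 19.1% for TRBV12-1 (13 of 68). The name TRBV13-2 may not hold all chains of its gene. Another 213 chains had the unseparated name TRBV12-2+TRBV13-2, with calls on 53 (24.9%), and some CDR3 sequences stood under both names. TRBV17 had calls on 53.8% of 13 chains in YTBI_aCD49d and on 11.1% of 9 in ATBI_Isotype. TRBV3, named after its values were seen, had them on 4 of 34 chains in ATBI_Isotype (11.8%) and on 20 of 47 in ATBI_aCD49d (42.6%). Those 20 included 1 TRBD2 CDR3 on TRBJ2-7 in 3 clonotypes and another on TRBJ2-4 in several. An uncalled TRBV3 CDR3 of that library, on TRBJ2-5, was also counted more than once. Differences between libraries within a V segment were not tested.

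The deposited calls were next set against the sequences themselves. V and J germline bases were removed from both ends of each CDR3, and the longest exact stretch of TRBD1 or TRBD2 was sought in what remained. A median of 9 such bases (range 4 to 12) was found on chains called TRBD1 and of 11 (range 6 to 14) on chains called TRBD2. Chains with no called D had a median of 6 (range 0 to 12). The whole germline segment survived in 22 of 278 TRBD1 chains (7.91%) and 11 of 141 TRBD2 chains (7.80%). Among chains with no called D, 153 of 1272 (12%, interval 10.3% to 13.9%) held a stretch of 9 or more bases. The share was 10.6% in YTBI_Isotype and 15% in YTBI_aCD49d, against 11.2% in ATBI_Isotype and 10.9% in ATBI_aCD49d.

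At the same length of remnant, pooled over libraries, chains whose longer match was TRBD2 were called less often than those of TRBD1 at each length from 9 to 12 bases. Of these 153 uncalled chains, 125 had TRBD2 as the longer match and 28 had TRBD1. Where the longest match was 9 bases, 81 of 95 TRBD1 stretches were called (85.3%, interval 76.5% to 91.7%) against 16 of 62 TRBD2 stretches (25.8%, interval 15.5% to 38.5%). A call of either segment is counted here, and of these 16 calls 14 were TRBD2 and 2 were TRBD1. The difference at 9 bases was 59.5 points (interval 44 to 71.6), and it was 75.0 points in YTBI_Isotype and 64.2 in YTBI_aCD49d, against 44.9 in ATBI_Isotype and 60.2 in ATBI_aCD49d. At 10 bases the difference was 29.2 points (interval 10.5 to 45.2) and at 11 bases 31.7 points (interval 10.0 to 48.1). At 11 bases ATBI_Isotype was the exception, with 6 of 10 TRBD1 and 8 of 13 TRBD2 stretches called (difference -1.54 points, interval -43.3 to 39.4). At 12 bases all 22 TRBD1 stretches were called and 28 of 45 TRBD2 stretches (62.2%), a difference of 37.8 points (interval 16.9 to 53.5). TRBD2 stretches of 13 or 14 bases were called in 33 of 33 chains. How the caller scores a match is not given in the sources used here, and its part in this difference was not tested.

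**Figure D4:**
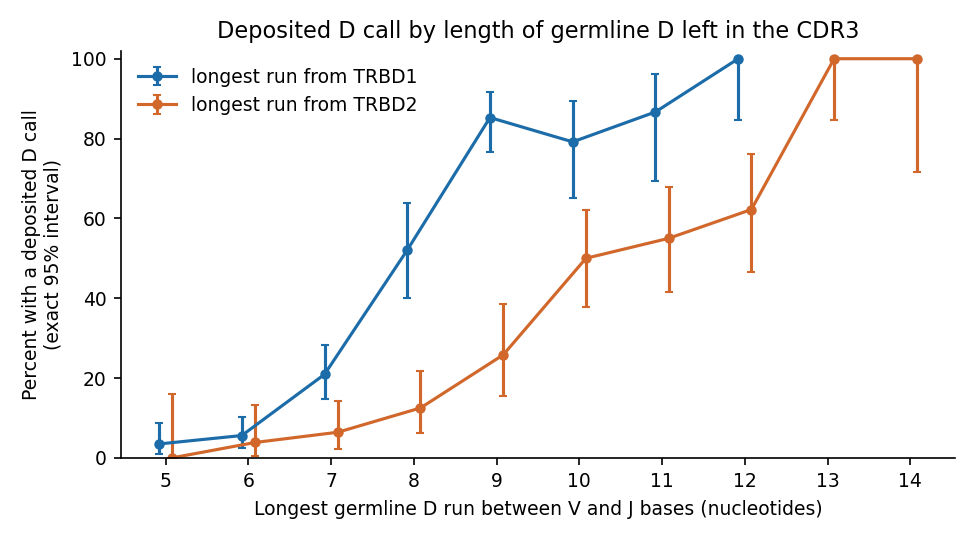
The percentage of rearrangements with a deposited D call (vertical axis, exact 95% intervals) is plotted against the length in nucleotides of the longest germline D stretch, for chains whose longer match was TRBD1 (blue) or TRBD2 (orange). TRBD1 stands at 85.3% at 9 bases and TRBD2 at 25.8%, and at 12 bases TRBD1 is called on all 22 chains and TRBD2 on 62.2% of chains.

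The direction of the calls also differed. No TRBD2 call had a longer TRBD1 stretch, whereas 21 TRBD1 calls had a longer TRBD2 stretch, all on cluster 2 chains and 14 of them with 9 or more TRBD2 bases. One such chain of ATBI_aCD49d is shown because it was called TRBD1 in all 7 of its cells, with the 11 bases of TRBD2 in capitals.
ATBI_aCD49d, TRBV12-1 and TRBJ2-1: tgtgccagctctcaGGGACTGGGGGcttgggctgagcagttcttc
Its longest TRBD1 stretch was 6 bases.

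Assigning the D by the longer stretch gave another split in cluster 2 but the same separation between clusters. With stretches of 9 or more bases, cluster 1 chains had TRBD2 as the longer match in 1 of 99 cases (1.01%, interval 0.0256% to 5.5%). Cluster 2 chains had it in 269 of 366 (73.5%, interval 68.7% to 77.9%). By library this share in cluster 2 was 71.7% in YTBI_Isotype and 71.7% in YTBI_aCD49d, against 75.8% in ATBI_Isotype and 74.1% in ATBI_aCD49d. TRBD1 was the longer match in 26.5% of these cluster 2 chains, against 51.9% of the deposited calls. With stretches of any length it was the longer match in 393 of 893 untied cluster 2 chains (44.0%, interval 40.7% to 47.3%). The TRBD2 share of untied cluster 2 chains rose with the limit, which favours the longer segment. It was 56.0% at any length, 61.7% at 6 or more bases, 66.8% at 7, 73.5% at 9 and 83.6% at 11. On TRBJ2-4 the long stretches were of TRBD1 in 5 chains and of TRBD2 in 44. By these long stretches TRBD1 was the rarer on every J segment of cluster 2. The counts were 16 against 36 on TRBJ2-1, 9 against 14 on TRBJ2-2 and 13 against 33 on TRBJ2-3. They were 16 against 43 on TRBJ2-5 and 38 against 99 on TRBJ2-7. With stretches of any length TRBD1 was the more frequent on TRBJ2-2 (42 against 27) and TRBJ2-3 (58 against 53). TRBD2 was still the more frequent on the other J segments of cluster 2. When stretches of any length were used, TRBD2 was the longer match in 32 of 461 untied cluster 1 chains (6.94%). This gives the rate at which short stretches of TRBD2 letters were found where deletion cannot place the segment.

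In all 4 libraries the CDR3 was longer on average in chains with a called D, and longest with TRBD2. These classes were not matched for the D stretch. It had 9 or more bases in 92.9% of chains called TRBD2 and in 65.1% of those called TRBD1. The mean CDR3 had 41.3 ± 4.14 nucleotides without a called D (SD over 1272 rearrangements), 43.6 ± 3.71 with TRBD1 (278 rearrangements) and 45.4 ± 3.68 with TRBD2 (141 rearrangements). Called minus uncalled was 3.02 nucleotides in YTBI_Isotype and 2.90 in YTBI_aCD49d, against 2.46 in ATBI_Isotype and 3.08 in ATBI_aCD49d. The mean difference was 2.87 ± 0.278 nucleotides, about 1 codon, and it was positive in 4 of 4 libraries (SD, n = 4). A call requires surviving D bases within the CDR3, which favours this direction, so no test of it is given. Benjamini-Hochberg adjustment covered the 4 measures compared over libraries by sign-flip permutation. Of these, CDR3 length and the cluster 1 share are not read as tests. The adjusted p was 1.0 for the clonal share and for the median of UMIs over single contigs, whose difference was 0.0 in all 4 libraries. Counted by rearrangement, the medians of called and uncalled chains were 11 and 11.5 UMIs in YTBI_Isotype, 9 and 9 in YTBI_aCD49d, 7 and 8 in ATBI_Isotype and 12 and 11 in ATBI_aCD49d.

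TRBD1 exceeded no called D by 2.91, 2.14, 1.65 and 2.56 nucleotides and TRBD2 by 3.20, 4.74, 3.86 and 4.15, in YTBI_Isotype, YTBI_aCD49d, ATBI_Isotype and ATBI_aCD49d. TRBD2 minus TRBD1 was 0.289, 2.60, 2.21 and 1.59 nucleotides in the same order. Pooled, TRBD1 exceeded no called D by a mean of 2.24 nucleotides, which was 3.23 within cluster 1 and 1.45 within cluster 2, while the medians differed by 0.0. Within cluster 2, where both can be used, TRBD2 chains were longer than TRBD1 chains by 2.34 ± 1.15 nucleotides (SD, n = 4), again in 4 of 4 libraries. Only called chains enter this comparison. Among uncalled cluster 2 chains, 125 had a longer TRBD2 stretch of 9 or more bases and 18 such a TRBD1 stretch. TRBD1 chains were longer when joined to cluster 1 than to cluster 2, by 1.42 ± 0.543 nucleotides (SD, n = 4), also in 4 of 4.

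The tails showed the same order. A CDR3 of at most 36 nucleotides was found in 234 of 1272 chains with no called D (18.4%), 12 of 278 with TRBD1 (4.32%) and 1 of 141 with TRBD2 (0.709%). At least 48 nucleotides were found in 8.41%, 16.9% and 38.3%. Read the other way, a D was called on 3 of 71 chains with a CDR3 of 27 to 33 nucleotides (4.23%), on 25.9% of 509 chains of 42 nucleotides and on 35 of 55 chains of 51 to 57 nucleotides (63.6%, interval 49.6% to 76.2%). A call requires surviving D bases, so length and call share a source.

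**Figure D5:**
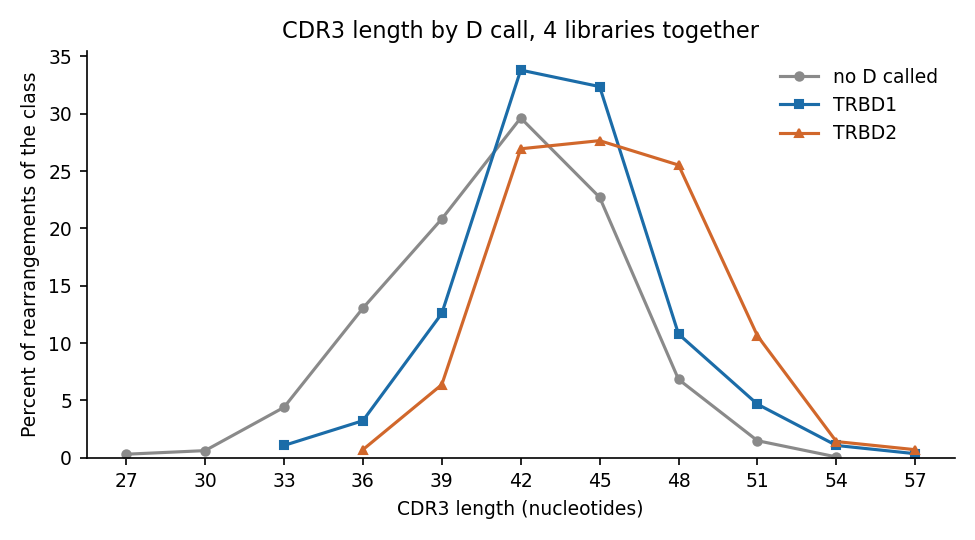
The percentage of rearrangements at each CDR3 length in nucleotides is plotted for chains with no called D (grey), TRBD1 (blue) and TRBD2 (orange), over the 4 libraries together. The curve of TRBD2 lies farthest right, with 38.3% of chains at 48 or more nucleotides against 8.41% with no called D.

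The extra length lay between the V and J bases. This middle part averaged 9.11 ± 3.54 nucleotides with no called D, 12.4 ± 3.04 with TRBD1 and 15 ± 3.32 with TRBD2. Called chains exceeded uncalled ones there by 4.27 ± 0.378 nucleotides (SD, n = 4 libraries). Their V ends were shorter by a small amount (difference -0.384 ± 0.0842) and so were their J ends (difference -1.02 ± 0.368). The D bases that a call requires lie in the middle part, which favours a longer middle in called chains. These 3 differences were therefore not tested. The bases of the middle part that did not belong to the D stretch averaged 3.39 with no called D, 3.47 with TRBD1 and 3.90 with TRBD2, and the called minus uncalled difference was 0.291 ± 0.445 (SD, n = 4), positive in 3 libraries and negative in ATBI_Isotype.

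Both D segments can be read in 3 frames without a stop codon, and each frame encodes glycine. Frames were read on called chains with at least 8 matching bases. For TRBD1, 87 of 205 chains used the frame that reads glycine, threonine, glycine and glycine (42.4%, interval 35.6% to 49.5%). A further 76 used glycine, glutamine and glycine (37.1%, interval 30.4% to 44.1%), and 42 used aspartate, arginine and glycine (20.5%, interval 15.2% to 26.7%). The frame with aspartate and arginine was the least used in all 4 libraries, at 17.2% of 29 in YTBI_Isotype and 25.0% of 52 in YTBI_aCD49d, against 25.0% of 56 in ATBI_Isotype and 14.7% of 68 in ATBI_aCD49d.

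For TRBD2, 60 of 138 chains used aspartate, tryptophan and glycines (43.5%, interval 35.1% to 52.2%) and 50 used glycine, threonine and glycines (36.2%, interval 28.2% to 44.8%). The frame with leucine was the least used, with 28 chains (20.3%, interval 13.9% to 28.0%). By library it was 18.2% of 22 in YTBI_Isotype and 21.2% of 33 in YTBI_aCD49d, against 14.6% of 41 in ATBI_Isotype and 26.2% of 42 in ATBI_aCD49d. The mean number of glycines per CDR3 was 1.31 with no called D, 2.12 ± 0.881 (SD over rearrangements) with TRBD1 and 2.66 ± 0.932 with TRBD2. The order was the same in each library. TRBD2 averaged 2.83 in YTBI_Isotype and 2.65 in YTBI_aCD49d, against 2.71 in ATBI_Isotype and 2.52 in ATBI_aCD49d. Since the germline segments are rich in glycine codons, this measure is not independent of the call.

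Over all contigs, beta contigs had a median of 9.0 UMIs with TRBD1, 10.0 with TRBD2 and 8.0 with no called D. In YTBI_Isotype the 24 contigs with TRBD2 had a median of 7.5, against 11 with TRBD1 and 11 with no called D, and totals of beta UMIs ran from 3207 to 13592 per library. By the median UMIs of a rearrangement, a D was called on 8 of 21 at 1 UMI (38.1%, interval 18.1% to 61.6%), 26.0% of 246 at 2 to 4, 22.8% of 606 at 5 to 9 and 25.6% of 818 at 10 or more. All contigs of a rearrangement had the same call in 220 of the 220 rearrangements with more than 1 contig, which held 1496 contigs. No alpha contig had a D. Between libraries, 1 cell barcode was shared, by the aged pair, and 1 beta CDR3 nucleotide sequence, by the young pair and with no called D.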

How the data were processed

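Single-cell TCR libraries were made by the authors with 10x 5' v2 chemistry, and the submitters' processing notes list Cell Ranger 7.2.0 and the builds mm9 and mm10, of which the study's methods give mm10. The deposited contig tables give UMIs and reads as counts for each chain, with V, D, J and C names and CDR3 nucleotides, and the deposited clonotype tables give cells per clonotype as a count. Only productive, full-length chains were deposited. The authors' later restriction to barcodes of T cells by transcriptome was not repeated. No doublet caller was run, and the 47 cells with more than 1 beta chain were kept and left out in an alternative.

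Each library, clonotype and beta CDR3 was counted once as a rearrangement, with the D call of most of its contigs. Of 1693 clonotypes, all 1693 had as many barcodes as deposited. Germline sequences came from the RefSeq GRCm38 genome at GENCODE vM21 positions, the assembly of mm10. CDR3 ends were placed by 12 bases of the flanking framework. For 68 rearrangements called TRBV10 these bases lay in annotated Trbv4, which was used instead. Shares have exact Clopper-Pearson 95% intervals. Where a count was 0, the upper limit is 3 counts of the total. Paired differences were tested over the 4 libraries by exact sign-flip permutation, whose smallest possible two-sided p is 0.125.

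Named were both D segments, every J and C gene, the 3 V segments with the highest and lowest share of calls among those with at least 20 rearrangements, the 3 largest clones per library, the largest chain of each class and both TRBD2 chains on cluster 1. These members and lists were chosen with earlier results of these data known. Alternatives changed the unit counted, the D caller, UMI minimum, cells kept, clonal limit and libraries. Scripts were tested on simulated data and used matplotlib 3.10.9, scipy 1.17.1, pandas 2.3.3, numpy 2.4.6 and Python 3.11.15.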

Additional observations from a re-analysis of the deposited data

Results flagged for a closer look

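Of 12 pairs of effects under the same contrast, 7 had opposite signs. With 1 library per group none of these differences was tested. The share of contigs with a called D differed, aCD49d minus isotype, by -0.943 points in young and 18.2 points in aged brains, and, aged minus young, by -9.54 points under isotype and 9.56 under aCD49d. The share of TRBD1 among called contigs differed by 6.44 points in young and -35.8 points in aged brains under the antibody contrast, and by 4.29 points under isotype and -38.0 under aCD49d in the age contrast. The contig values of 18.2, 9.56, -35.8 and -38.0 points include ATBI_aCD49d, with its TRBD2 clones of 101 and 69 cells, and the others do not. Counted once per rearrangement, the TRBD1 share differed by 1.49 points under isotype and -2.74 under aCD49d between aged and young.

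The excess in CDR3 length of called over uncalled rearrangements changed by -0.119 nucleotides with aCD49d in young and by 0.611 in aged brains. Between aged and young it changed by -0.559 under isotype and by 0.171 under aCD49d.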

How the results depend on the processing

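No paired analysis was possible because a group held only 1 library, so samples could not be paired across groups, and the paired values above compare called with uncalled chains within a library. Of 275 recomputed values of 21 results, 248 stayed within the counting interval (for CDR3 length, within 1 SD over libraries) and 27 moved beyond it. Counting contigs turned the aged minus young difference under aCD49d and the aCD49d minus isotype difference in aged brains from below to above 0. In cells with an alpha and a beta chain, aged minus young turned to 1.52 points under isotype and 1.35 under aCD49d. Contigs without the largest rearrangement gave 1.67 points for the latter. In young brains aCD49d minus isotype turned to 0.0102 points with at least 3 UMIs and 0.904 by contigs without rearrangements of 10 or more cells. Of the length differences, 47 of 48 were above 0. Taking the D of any contig or of the contig with most UMIs could not change a value, since all contigs of a rearrangement had the same call. The 42 values so obtained are among the 248 and say nothing of stability. Counting contigs moved the called share to 15.6% in ATBI_Isotype and 33.8% in ATBI_aCD49d, TRBD1 among the calls of ATBI_aCD49d to 32.1%, the called share to 14.3% in cluster 1 and 32.0% in cluster 2, and TRBD1 of cluster 2 calls to 35.1%. It also moved the length excess to 3.83 nucleotides for any D and 5.46 for TRBD2. The aged minus young difference became -9.54 points under isotype and 9.56 under aCD49d, and aCD49d minus isotype became 18.2 points in aged brains. Without the largest rearrangement of each library, contigs gave 17.5% called in ATBI_Isotype, 43.7% TRBD1 among calls in ATBI_aCD49d and an aged difference of 9.80 points. The D caller by longest stretch put 52.2% of TRBD1 and 6.02% of TRBD2 on cluster 1, called 74.7% of cluster 1 and 83.1% of cluster 2 chains, and gave 44.0% TRBD1 in cluster 2. With at least 9 bases these were 16.0%, 34.1% and 26.5%. Within cluster 1 the length excess was 3.24 nucleotides for any D and 3.23 for TRBD1, and within cluster 2 it was 1.45 for TRBD1. By medians it was 0.0 for TRBD1 and 3.0 for TRBD2, CDR3 lengths being multiples of 3. Leaving out each library was run for 9 pooled results (J cluster, CDR3 length and clonal share) and moved none beyond its interval, but the difference between clusters in called share fell from 5.84 to 3.65 points without ATBI_Isotype, and the pooled difference in clonal share was -0.244 points without ATBI_aCD49d. That difference was also below 0 with clonal at 3 or more cells (-0.0841), with the same CDR3 joined (-0.672) and with CDR3 within 1 base joined (-0.572). The alternatives beyond those planned, among them joining clonotypes with the same or nearly the same CDR3, were chosen after seeing the data.

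With 230 rearrangements in YTBI_Isotype, differences between libraries of a few points lie within counting error. Mice were pooled, so differences between mice were not measured, and sorted CD45+ cells were not checked for T cell identity. A D that was trimmed away leaves no call, so an uncalled chain is not one made without a D segment. Stretches of a few D bases can arise in added bases, and a D stretch with a mismatch is cut short.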

Other observations

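Within single libraries, 26 pairs of clonotypes had the same beta CDR3 nucleotides and J segment, and the D call was the same in 26 of 26, 15 of them with no call. A further 11 pairs differed at 1 base, and the call was the same in 10. In the other pair, from ATBI_Isotype, chains joining TRBV31 to TRBJ2-7 differed at position 15 of the CDR3 (A15T, from the chain of 1 cell to that of 8 cells), and TRBD1 was called on the chain of 1 cell while the chain of 8 cells had no call. Of the pairs with the same CDR3, 12 also shared an alpha CDR3, among them the clones of 101 and 12 cells with TRBD2 in ATBI_aCD49d.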
